A study of Rattus norvegicus with 30 samples.

Results

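Brain-derived neurotrophic factor (Bdnf) and its receptor TrkB, encoded by Ntrk2, were followed as the 2 rows ENSRNOG00000047466 and ENSRNOG00000018839 of a count table of 32586 rat genes. The rows were chosen by identifier, and the symbols are those given with that choice. No file used here pairs Ensembl identifiers with symbols, so the names were not checked against the files. Both rows passed the filter on low counts, among 15885 genes tested. Total RNA was sequenced from the brain of 30 rat pups of 2 strains. The GAERS line (genetic absence epilepsy rats) has spontaneous absence seizures, and the NEC line (non-epileptic controls) was bred without them. Within each line some pups had been exposed to valproate (VPA), a medicine against seizures and an inhibitor of histone deacetylases, and the others, called controls here, had not. The NEC pups were 8 controls and 7 exposed, and the GAERS pups also 8 controls and 7 exposed. Age, sex, litter, part of the brain, and the dose and time of VPA are not in the labels. Littermates may be among the pups, in which case the p-values reflect the spread of these 30 samples and not of independent litters.

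BDNF is a secreted neurotrophin, made as a precursor that is cleaved to the mature factor, and neurons raise its transcription when they are active. It binds the receptor tyrosine kinase TrkB on the cell surface, which signals through the MAP kinase, PI3 kinase and phospholipase C gamma routes and acts on neuronal survival, dendrite growth and synaptic strength. Ntrk2 also encodes truncated forms that lack the kinase domain, and astrocytes carry mainly a truncated form. The row of each gene sums all its transcripts, so full-length and truncated TrkB, and Bdnf transcripts from different start sites, cannot be told apart here. In bulk tissue, fewer cells of a type and less RNA per cell cannot be told apart either.

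Bdnf is transcribed from several alternative start sites that splice to a shared coding exon, and 1 of its upstream windows is shown to make clear what the gene row adds together. RefSeq (GRCr8) has 6 start-site windows for Bdnf in the table used here, and none for Ntrk2. The 250 bases before each start were searched on both strands for TGACGTCA, the cAMP response element bound by CREB, and for the variant TCACGTCA, which is TGACGTGA on the other strand. The variant was found in 1 of the 6 Bdnf windows and in 0.350% of all 33469 windows, and TGACGTCA in 0 of the 6 and in 1.59% of all windows. The window with the match lies on the plus strand at chr3:116637608-116637857, and the matched letters, in capitals, end 30 bases before the start site.
Bdnf window: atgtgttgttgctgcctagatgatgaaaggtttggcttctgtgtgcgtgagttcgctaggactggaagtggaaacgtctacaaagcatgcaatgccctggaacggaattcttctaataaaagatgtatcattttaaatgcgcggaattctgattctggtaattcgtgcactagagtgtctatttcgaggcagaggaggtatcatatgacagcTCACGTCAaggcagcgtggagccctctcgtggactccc
The match is a description of these letters. The counts are per gene, so use of this start site was not measured.

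Libraries held 26963266 to 56568656 counts. The profiles of 4 libraries were least like those of their own group: NEC control 3 (median r 0.976), GAERS control 1 (0.982), GAERS VPA 4 (0.984) and NEC VPA 7 (0.985), against 0.989 to 0.993 in the other 26. Values without these 4 libraries are given beside many of the results. Across libraries the Bdnf row had 107 to 540 counts and the Ntrk2 row 7037 to 19328. Levels are given as CPM, the count divided by the library size as scaled by the TMM method. CPM is not corrected for gene length, so it compares pups for 1 gene and not the 2 genes with each other.

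Bdnf, the ligand, was highest in NEC controls and lowest in exposed NEC pups. In NEC controls it ran from 5.92 to 16.8 CPM with a median of 9.01 CPM and a mean of 9.41 ± 3.53 CPM (SD, n = 8). In exposed NEC pups it ran from 4.02 to 9.20 CPM with a median of 5.94 CPM and a mean of 5.90 ± 1.71 CPM (SD, n = 7). The ranges overlapped: 3 of 7 exposed pups lay below all controls, 6 of 7 lay below the control median, and 4 of 8 controls lay above every exposed pup. The highest control was NEC control 3 and the lowest exposed pup NEC VPA 7, both among the 4 least typical libraries. In GAERS controls Bdnf ran from 6.91 to 13.6 CPM with a median of 7.81 CPM and a mean of 8.45 ± 2.14 CPM (SD, n = 8). In exposed GAERS pups it ran from 4.58 to 8.91 CPM with a median of 8.23 CPM and a mean of 7.44 ± 1.53 CPM (SD, n = 7). In GAERS too 3 of 7 exposed pups lay below all controls, but 3 of 7 lay below the control median and 1 of 8 controls lay above every exposed pup. Here the extremes were GAERS control 1 and GAERS VPA 4. The other 7 GAERS controls at 6.91 to 8.46 CPM and the other 6 exposed pups at 6.69 to 8.91 CPM covered almost the same range, and the exposed median was above the control median.

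Ntrk2, the receptor, varied much less between pups. In NEC controls it ran from 309 to 356 CPM with a median of 344 CPM and a mean of 341 ± 14.4 CPM (SD, n = 8). In exposed NEC pups it ran from 264 to 338 CPM with a median of 309.6 CPM and a mean of 303 ± 22.8 CPM (SD, n = 7). All 7 exposed NEC pups lay below the control median and 3 of 7 below every control. The lowest control, at 309 CPM, was again NEC control 3. The other 7 NEC controls lay at 335 CPM and above, and 6 of 7 exposed pups were below all of these. In GAERS controls Ntrk2 ran from 304 to 381 CPM with a median of 332 CPM and a mean of 337 ± 24.2 CPM (SD, n = 8). In exposed GAERS pups it ran from 295 to 366 CPM with a median of 308 CPM and a mean of 319 ± 24.7 CPM (SD, n = 7). There 6 of 7 exposed pups lay below the control median, but only 2 of 7 below every control. The plot of levels by group shows the wide overlap for Bdnf and the narrower spread of Ntrk2.

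**Figure D1:**
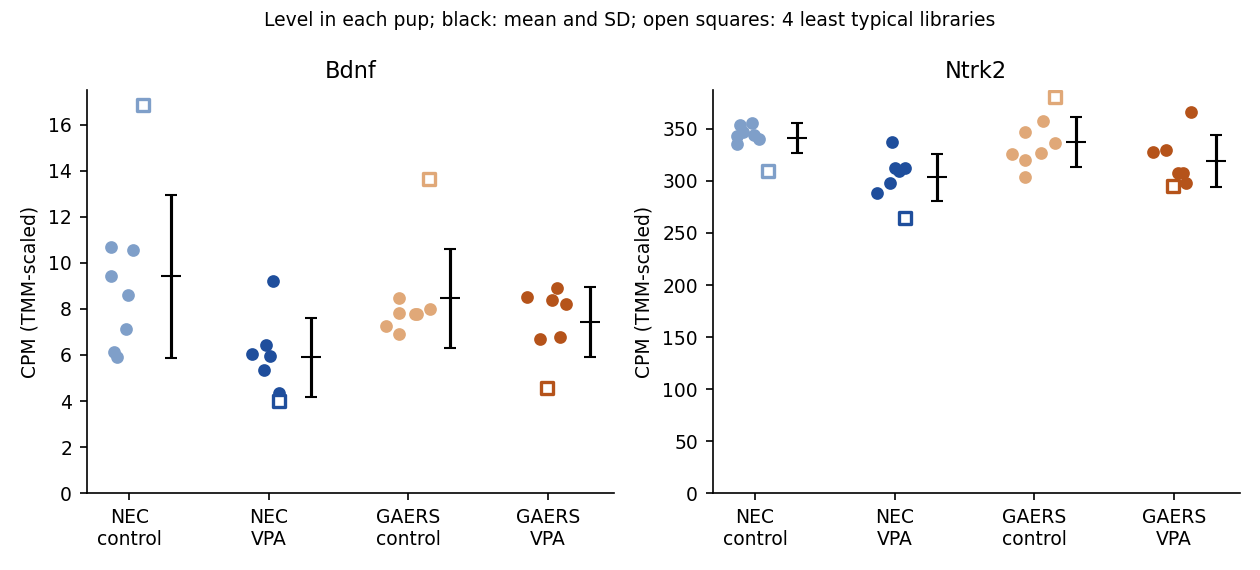
Level of Bdnf (left) and Ntrk2 (right) in each of 30 pups, in TMM-scaled CPM on axes that start at 0, by strain and exposure. Points are pups, black marks are mean and SD, and open squares are the 4 least typical libraries, which include the highest Bdnf value (16.8 CPM, NEC control 3) and the lowest (4.02 CPM, NEC VPA 7).

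The spread of Bdnf between pups exceeded counting error by a wide margin. Within groups its coefficient of variation was 20.5% to 37.5%, where counting alone gives a median of 5.53% to 7.50%. Its SD within groups was 0.39 on the log2 scale, against a median of 0.20 among the 500 tested genes nearest to it in mean log2 CPM, and it was more variable than 92.8% of them. For Ntrk2 the coefficient of variation was 4.23% to 7.75%, with counting error of 0.885% to 1.01%. Its SD of 0.097 on the log2 scale was close to the median of 0.10 of its 500 nearest genes. The receptor could therefore be compared between groups with a much smaller standard error than the ligand.

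VPA exposure, averaged over the strains, went with lower levels of both genes. Bdnf fell by 25.6% (95% interval -38.9% to -9.50%), or -0.43 ± 0.14 on the log2 scale (SE; adjusted p = 0.0207 by edgeR). Ntrk2 fell by 8.29% (-12.8% to -3.55%), or -0.12 ± 0.036 on the log2 scale (SE; adjusted p = 0.0091 by edgeR). Both members were thus called lower, where 15.2% of all 15885 tested genes were, and 29.1% were called in either direction. Calls of this kind were common, and the estimated changes of the 2 genes ranked differently among all genes. The change of Bdnf was larger than the median of 0.20 among called genes, and 4.27% of all tested genes had a larger one in either direction. The change of Ntrk2 was exceeded by 42.2% of tested genes. These places are by size alone, and the SE of Bdnf was 0.14 against a median of 0.060 among all tested genes. By edgeR p-value the order was the other way, with Bdnf at place 3361 and Ntrk2 at place 2494 of 15885. The fall of Bdnf averaged over strains did not hold in every setting. It was -0.19 without the 4 least typical libraries (adjusted p = 0.159, against 0.00642 to 0.0409 when any 1 library was left out), -0.26 with limma-voom quality weights (adjusted p = 0.0509) and -0.39 with the log2 total count as a covariate (edgeR adjusted p = 0.0604).

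Within NEC both genes fell. Bdnf fell by 37.2% (95% interval -52.5% to -16.9%) or -0.67 ± 0.20 on the log2 scale (SE; adjusted p = 0.014 by edgeR). Ntrk2 fell by 11.0% (-17.2% to -4.47%) or -0.17 ± 0.050 on the log2 scale (SE; adjusted p = 0.015 by edgeR). In this comparison 13.6% of tested genes were called lower and 24.6% in either direction. The change of Bdnf was exceeded in size by 2.48% of tested genes and that of Ntrk2 by 41.8%. By edgeR p-value the 2 genes stood close together, at places 2197 and 2286 among all tested genes. Exposed NEC libraries held 26963266 to 37862679 counts and NEC controls 30713506 to 37383067, apart from NEC control 7 with 56568656. With the log2 total count as a covariate Bdnf was at -0.64 (edgeR adjusted p = 0.0249) and Ntrk2 at -0.15 (adjusted p = 0.0301). Both calls held in each alternative run, but the size of the Bdnf change depended on few pups. It was -0.50 without NEC control 3 (edgeR adjusted p = 0.0383), -0.43 without the 4 least typical libraries (adjusted p = 0.0275) and -0.34 with 5 surrogate variables (adjusted p = 0.00569), which are axes of variation estimated from all genes. With surrogate variables Ntrk2 was at -0.095 (edgeR adjusted p = 0.0357). Both members are among the genes these axes were estimated from, so this model is not independent of their values. The SE of Bdnf in NEC was 0.091 under it. Exact two-sided permutation tests on the log2 CPM of the NEC pups gave a p of 0.0166 for Bdnf (n = 7 and 8, adjusted p = 0.0499 over 6 comparisons) and of 0.00264 for Ntrk2 (adjusted p = 0.00793).

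Within GAERS neither gene passed the test. Bdnf stood at -0.18 ± 0.19 on the log2 scale (SE; adjusted p = 0.687 by edgeR), with a 95% interval from -0.58 to 0.21. Ntrk2 stood at -0.081 ± 0.050 (SE; adjusted p = 0.42 by edgeR), with an interval from -0.18 to 0.022. It was -0.035 without the 4 least typical libraries (edgeR adjusted p = 0.717), and -0.054 without GAERS control 1 to -0.12 without GAERS VPA 2. In GAERS 3.82% of tested genes were called in either direction. Without the 4 least typical libraries the Bdnf value was 0.041 (edgeR adjusted p = 0.916), and with surrogate variables it was -0.31 (adjusted p = 0.00529), where NEC had -0.34 under that model. Without GAERS control 1 it was -0.050, and no omission of 1 library brought it past the threshold. The interval of Bdnf in GAERS overlaps that in NEC, and log2 changes down to -0.58 lie within it.

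Whether the response differed between the strains was tested as an interaction. The VPA change of Bdnf was higher in GAERS than in NEC by 0.49 ± 0.28 on the log2 scale (SE, unadjusted p = 0.0882, edgeR adjusted p = 0.616), with a 95% interval from -0.077 to 1.05. For Ntrk2 the difference was 0.088 ± 0.071 (SE, unadjusted p = 0.226, edgeR adjusted p = 0.704), with an interval from -0.057 to 0.23. A difference between the strains was therefore not shown for either gene, and for Bdnf the interval of the difference, as a ratio of the fold changes, ran from -5.22% to 107%. The Bdnf value depended on the model and on single libraries. It was 0.027 with surrogate variables (adjusted p = 0.987), 0.32 without NEC control 3 (adjusted p = 0.683) and 0.47 without the 4 least typical libraries (unadjusted p = 0.0267, edgeR adjusted p = 0.206). Leaving out 1 library at a time gave 0.32 to 0.63 for Bdnf and 0.047 (without GAERS VPA 2) to 0.11 for Ntrk2, which was 0.015 with surrogate variables. None of these passed after adjustment over all genes, where the adjusted p for Bdnf with 1 library left out was 0.223 to 0.83. For this interaction 0 of all 15885 tested genes were called in either direction.

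No difference between the strains passed the test for the ligand or the receptor. Between GAERS and NEC controls the log2 fold change was -0.15 ± 0.19 for Bdnf (SE, edgeR adjusted p = 0.67) and -0.015 ± 0.049 for Ntrk2 (SE, edgeR adjusted p = 0.885). Without NEC control 3 the Bdnf value was 0.025, and without the 4 least typical libraries the Ntrk2 value was -0.053 (edgeR adjusted p = 0.478). In exposed pups Bdnf was at 0.33 ± 0.20 (SE, edgeR adjusted p = 0.29) and Ntrk2 at 0.073 ± 0.052 (SE, edgeR adjusted p = 0.372). With surrogate variables these were 0.039 and -0.048. Without the 4 least typical libraries Bdnf was at 0.36 (edgeR adjusted p = 0.086), and leaving out 1 library at a time gave 0.26 to 0.47 (edgeR adjusted p = 0.12 to 0.484). Of all tested genes, 8.66% were called between the strains in controls and 12.3% in exposed pups. For both genes the order of group means was NEC control, GAERS control, GAERS VPA and NEC VPA, from high to low. The order of group medians was not the same. The Bdnf median was higher in GAERS VPA (8.23 CPM) than in GAERS control (7.81 CPM). The Ntrk2 median was higher in NEC VPA (309.6 CPM) than in GAERS VPA (308.0 CPM). No neighbours in the order of means differed beyond their spread by the tests above. The only groups of that order that were tested and differed were its ends, NEC control and NEC VPA.

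**Figure D2:**
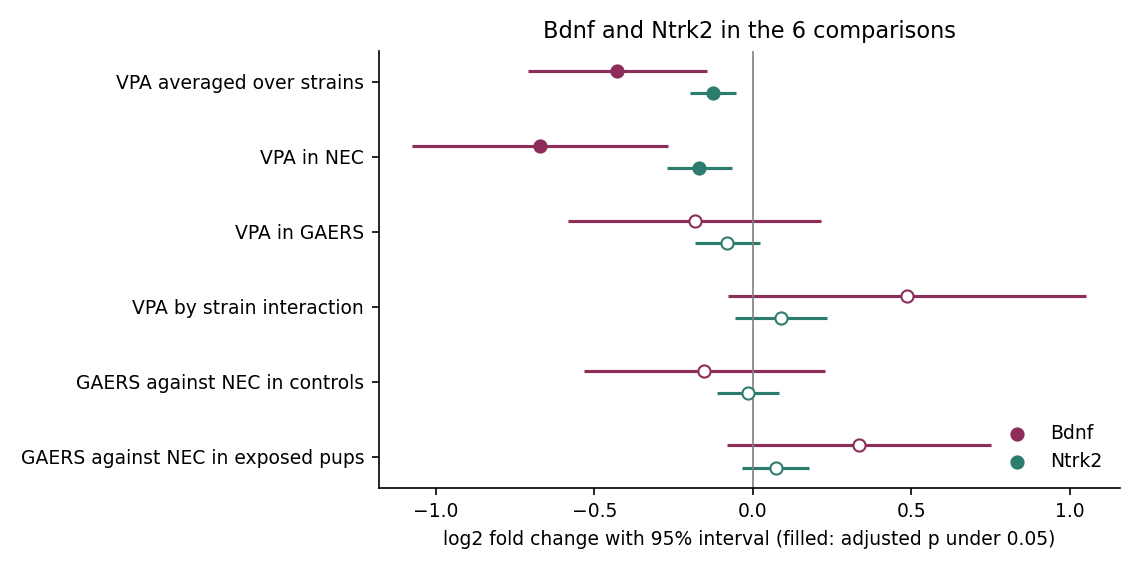
Log2 fold change of Bdnf and Ntrk2 in the 6 comparisons with 95% intervals from the edgeR fit; filled points have an adjusted p under 0.05. Only VPA averaged over strains (-0.43 and -0.12) and VPA in NEC (-0.67 and -0.17) are filled, and the intervals of Bdnf are several times wider than those of Ntrk2.

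The ratio of the 2 rows within a pup is free of library scaling and shows whether ligand and receptor changed unequally. It is a ratio of counts and not of molecules. NEC controls had 17.1 to 54.4 Bdnf counts per 1000 Ntrk2 counts with a median of 26.2, and exposed NEC pups 13.9 to 29.7 with a median of 19.0. GAERS controls had 19.9 to 35.8 with a median of 23.7, and exposed GAERS pups 15.5 to 28.9 with a median of 22.8. The ranges overlapped in both strains. The log2 ratio differed by -0.47 between exposed and control NEC pups, with a mean of -5.73 ± 0.35 (SD, n = 7) against -5.26 ± 0.55 in controls (SD, n = 8). By an exact permutation of the pups, counted on both sides, this gave p = 0.0713, or 0.214 adjusted over the 6 comparisons. Without the 4 least typical libraries the NEC difference was -0.27 (exact permutation p = 0.214, adjusted p = 0.429), and without NEC control 3 alone it was -0.32. Averaged over strains the difference was -0.29 (exact permutation p = 0.0547, adjusted p = 0.214), and -0.099 without those 4 libraries (exact permutation p = 0.403). With all 30 pups none of the other 4 comparisons had an adjusted p under 0.277. So the larger fold change of Bdnf was not shown to exceed that of Ntrk2.

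No joint variation of ligand and receptor from pup to pup was shown over the 30 pups once group means were removed. Over 30 pups the log2 CPM of Bdnf and Ntrk2, each centred on its group mean, had a Pearson r of 0.151 (permutation within groups, p = 0.42, adjusted p = 0.42) and a Spearman rho of 0.0194 (p = 0.921, adjusted p = 0.921), with p-values adjusted over 3 such relations. Without the pups farthest out in Bdnf, NEC control 3 and GAERS control 1, r was 0.208 (n = 28). Without centring r was 0.428 (permutation p = 0.0193), a value that includes the differences between groups. Within groups the values varied. In NEC controls the pups with more Bdnf had less Ntrk2, with r = -0.913 and rho = -0.905 (n = 8, exact permutation p = 0.00377, adjusted p = 0.0159 over 12 relations within groups). There r was -0.821 without NEC control 3 (n = 7) and -0.935 without the 2 pups farthest out in Bdnf (n = 6). In the other 3 groups r was 0.442 to 0.568, with adjusted exact permutation p of 0.288 to 0.324. Each of these rested on 1 library: r was 0.104 in exposed NEC pups without NEC VPA 7 and 0.138 in exposed GAERS pups without GAERS VPA 4. In GAERS controls it was -0.542 without GAERS control 1, the pup highest in both genes of its group. Over all pups r was -0.111 without these 3 and NEC control 3 (n = 26, permutation p = 0.549), and from 0.0015 without GAERS control 1 to 0.36 without NEC control 3 when 1 library was left out. Whether r differed between groups was not tested.

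**Figure D3:**
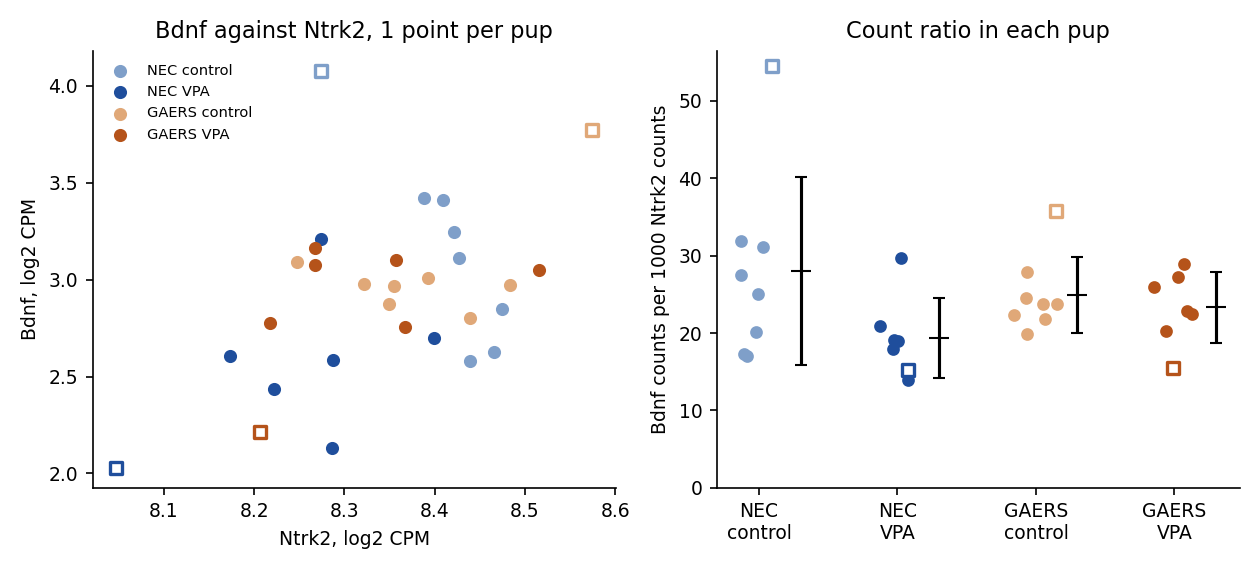
Left: log2 CPM of Bdnf against Ntrk2, 1 point per pup, coloured by group. Right: Bdnf counts per 1000 Ntrk2 counts in each pup with mean and SD on an axis from 0; open squares are the 4 least typical libraries. NEC controls fall from upper left to lower right (r = -0.913), and NEC control 3 stands highest in the ratio at 54.4.

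Bdnf followed the main axis of variation among the pups closely, while no relation to it was shown for Ntrk2 over all 30. This relation was chosen after the components had been seen, and the p-values below do not cover that choice. How many other tested genes follow this axis as closely was not counted. The first principal component of log2 CPM over all tested genes, with 20.7% of the variance, has an arbitrary sign that was set so that Bdnf rises along it. Bdnf is 1 of the 15885 genes it is made from. With group means removed, its scores correlated with Bdnf at r = 0.913 and rho = 0.857 (n = 30, permutation p = 1e-05, the smallest that 100000 permutations can give, adjusted p = 3e-05 for both). Without NEC control 3 and GAERS control 1, farthest out on the component, r was 0.861 (n = 28), and without the 4 least typical libraries it was 0.795 (n = 26, permutation p = 7e-05). Within groups r was 0.913 in NEC controls, 0.937 in exposed NEC, 0.937 in GAERS controls and 0.886 in exposed GAERS. In exposed GAERS pups it was 0.542 without GAERS VPA 4, and in GAERS controls it rested on GAERS control 1 and was 0.173 without it. Adjusted over 12 relations, the exact permutation p was 0.0159 and 0.00476 in the NEC groups, and 0.154 and 0.0754 in the GAERS groups. For Ntrk2 r was 0.276 (permutation p = 0.14, adjusted p = 0.21) and rho 0.167 (p = 0.389, adjusted p = 0.583), and without NEC control 3 r was 0.526 (n = 29, permutation p = 0.00869). Within groups the r of Ntrk2 was -0.871 in NEC controls and 0.398 to 0.767 in the other 3 groups, with adjusted exact permutation p of 0.0754 to 0.336. Without the least typical library of each group these were -0.517 in NEC controls, 0.119 in exposed NEC, 0.453 in GAERS controls and 0.0523 in exposed GAERS, and over the remaining 26 pups r was 0.0356 (permutation p = 0.856).

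The scores of exposed and control pups overlapped on this component in both strains. NEC controls ran from -24.0 to 49.9 with a median of 5.60, and exposed NEC pups from -49.8 to 6.35 with a median of -16.7. GAERS controls ran from -4.64 to 46.3 with a median of 0.361, and exposed GAERS pups from -20.9 to 19.3 with a median of 5.68. In NEC the medians of both Bdnf and the component were thus lower in exposed pups, and in GAERS the medians of both were higher. A difference of the scores between groups was not tested. The part of this axis in the Bdnf result was not tested beyond the model with surrogate variables given above. What the axis stands for could not be read from gene names here.

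**Figure D4:**
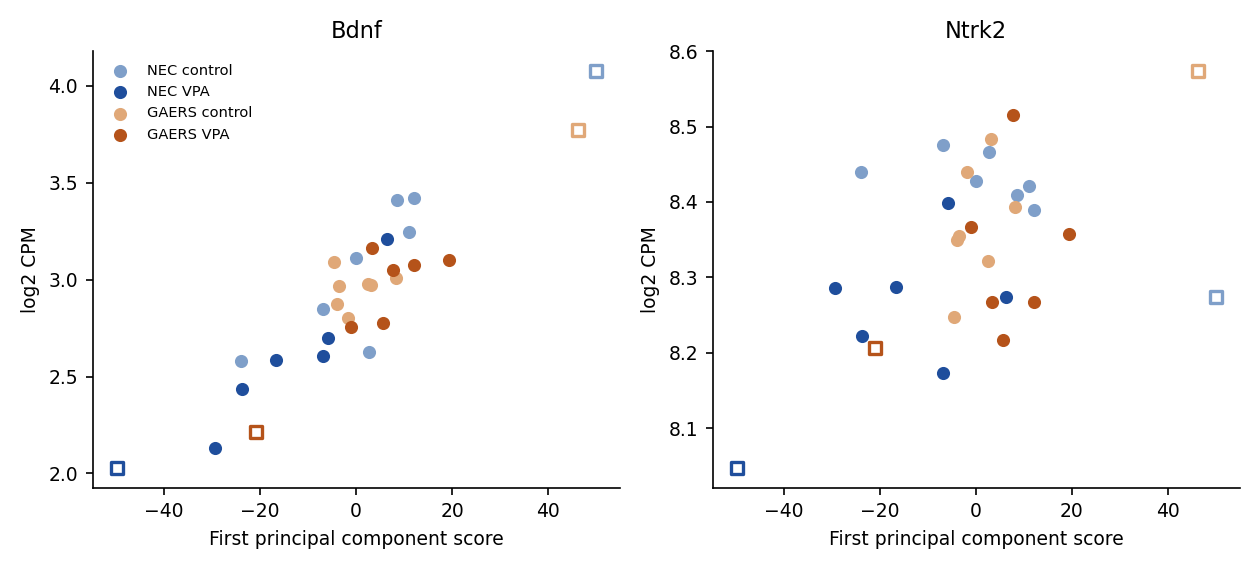
Log2 CPM of Bdnf (left) and Ntrk2 (right) against the score of each pup on the first principal component; colours are groups and open squares the 4 least typical libraries. Bdnf rises along the component in a narrow band (r = 0.913 with group means removed), with NEC VPA 7 and NEC control 3 at its ends, while Ntrk2 scatters (r = 0.276).

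Genes with a pattern like that of each member were ranked by Pearson r over the 30 pups, with group means removed, among 11946 genes whose log2 CPM averaged 2 or more. They share libraries and the main axis with the members, so r is a description. For Bdnf, 23.1% of these genes had an r above 0.5, and for Ntrk2 8.04%. Ntrk2 stood at place 4766 among the genes most like Bdnf. Most like Bdnf was ENSRNOG00000020684 (r = 0.95, and 0.876 without the 4 least typical libraries), which fell with VPA in NEC by 0.29 on the log2 scale (edgeR adjusted p = 0.022). Most opposite to Bdnf was ENSRNOG00000042860 (r = -0.926), which rose with VPA in NEC by 0.57 on the log2 scale (edgeR adjusted p = 0.0326). Most like Ntrk2 was ENSRNOG00000018231 (r = 0.859, and 0.774 without those 4), which fell in NEC by 0.27 on the log2 scale (edgeR adjusted p = 0.021). Most opposite to Ntrk2 was ENSRNOG00000023360 (r = -0.851), which rose in NEC by 0.23 on the log2 scale (edgeR adjusted p = 0.00174). Of all tested genes, 24.6% were called with VPA in NEC. None of the genes named here was called in GAERS. There their log2 changes, in the order given, were -0.057, 0.14, -0.083 and 0.078 (edgeR adjusted p = 0.439 to 0.808).

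The pups of each group fell into 2 sets by 8 genes that are near 0 in some pups and high in the rest of every group, and all 8 gave the same division. Within the sets the VPA difference of Bdnf in NEC was -0.62 on the log2 scale in one set (4 exposed and 5 control pups) and -0.60 in the other (3 and 3). The first of these includes NEC control 3, and the other includes NEC VPA 7. In GAERS the VPA difference of Bdnf was -0.48 (4 and 3 pups, which include GAERS control 1 and GAERS VPA 4) and 0.12 (3 and 5). For Ntrk2 the differences were -0.12 and -0.24 in NEC and -0.18 and -0.0014 in GAERS, in the same order of sets. Both genes were thus lower in exposed NEC pups in each set, while in GAERS the values of the sets lay further apart. With the set as a covariate the log2 fold change in NEC was -0.66 for Bdnf (edgeR adjusted p = 0.0124) and -0.17 for Ntrk2 (adjusted p = 0.0165). Differences between the sets in the VPA response were not tested.

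**Figure D5:**
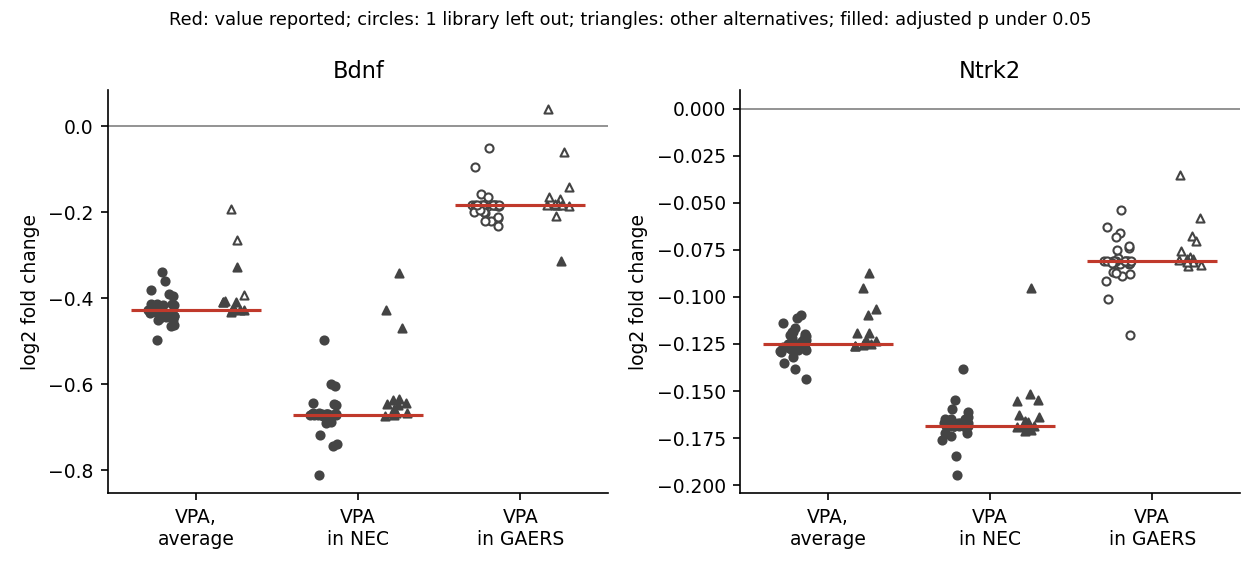
Log2 fold change of Bdnf (left) and Ntrk2 (right) with VPA, averaged over strains and in each strain. Red lines are the values reported, circles leave out 1 library each, triangles are the other alternatives, and filled symbols have an adjusted p under 0.05. All symbols for NEC are filled and below 0, from -0.81 to -0.34 for Bdnf and -0.19 to -0.095 for Ntrk2, and 3 triangles for Bdnf averaged over strains are open.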

How the data were processed

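The authors deposited raw counts per Ensembl gene for 30 brain RNA libraries, not normalized. Quality control was by FastQC and alignment by STAR 2.5, per the submitters' processing notes, which name the rat genome Rnor_6.0. The library kit was stranded, per the labels' protocols. How reads were assigned to genes, with which annotation and whether by strand, is not given in the sources used here. In GRCr8, 7 lncRNA loci overlap Ntrk2 and 0 loci overlap Bdnf, so reads of Ntrk2 may include theirs.

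Genes were kept by filterByExpr (minimum count 10, minimum total 15), scaled by TMM and fitted in edgeR 4.0.16 (R 4.3.3) with 4 group means on all 30 libraries, robust quasi-likelihood tests and Benjamini-Hochberg adjustment over 15885 genes (threshold 0.05). Standard errors come from the F statistic. The fit was tested on simulated data. DESeq2 1.42.0, limma 3.58.1 and sva 3.50.0 were alternatives. Ratios and correlations used permutation tests in Python 3.11.15 with scipy 1.17.1, exact except for the correlations over all pups (100000 permutations). Replicate libraries differed by more than counting noise (lowest chi-square per degree of freedom 5.25). Replicate numbers follow the order of deposit. Depth was 26963266 to 56568656 counts per library. Intervals are 95%.

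The members, lists, tests and the 4 libraries left out were chosen with earlier results of these data known. The exact tests on log2 CPM and the relations to the first component were added after seeing the data. Named genes are the members and, for each, the gene most and least like it by r (the rule allowed 2 each way; 1 is given). Lists of pathway genes and cell type markers were set by symbol. The RefSeq table at hand has an Ensembl identifier in 0 of 47357 rows, so these lists were not run, and the tissue label was not checked against markers.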

Additional observations from a re-analysis of the deposited data

Results flagged for a closer look

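In 12 sets of values (Bdnf CPM, Ntrk2 CPM and their log2 ratio, each in 4 groups) the highest and lowest pup was compared with the rest of its group. The measure was the gap to its neighbour over the whole range, and 3 values stood apart. Chance flags about 1 in 20 groups of normally distributed values, and the sets reuse the same pups. Bdnf in NEC control 3 was at 16.8 CPM, with a gap of 0.565 of the range (critical value 0.526). Bdnf in GAERS control 1 was at 13.6 CPM, with a gap of 0.768 of the range. Ntrk2 in NEC control 3 was at 309 CPM, the lowest of its group, with a gap of 0.555 of the range. NEC control 3 was therefore high in the ligand and low in the receptor, while GAERS control 1 was the highest of its group in both.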

How the results depend on the processing

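Of 812 values recomputed under alternatives, 796 kept their direction and side of the threshold: 625 of 630 with 1 library left out and 171 of 182 otherwise. These totals include results that had not passed, for which this means only the same sign and still no pass. Apart from leaving out 1 library, Bdnf with VPA averaged over strains kept its call in 10 of 13 alternatives. Bdnf with VPA averaged over strains no longer passed without the 4 least typical libraries (-0.19), with limma-voom quality weights (-0.26) or with the log2 total count as a covariate (-0.39). Bdnf with VPA in GAERS turned to 0.041 without the 4 libraries and passed with surrogate variables (-0.31). Near 0, signs turned for strain: Bdnf in controls was 0.011 with surrogate variables, Ntrk2 in controls 0.0075 with upper-quartile scaling, and Ntrk2 in exposed pups -0.048 with surrogate variables. Leaving out 1 library gave -0.29 to 0.025 for Bdnf, -0.042 to 0.0050 for Ntrk2 and -0.18 to 0.060 for their log2 ratio between strains in controls. The log2 ratio for VPA in GAERS was 0.070 without the 4 libraries. The correlation of Bdnf and Ntrk2 was 0.428 without centring on group means and -0.111 without the 4 libraries. The correlation of Ntrk2 with the first component passed without NEC control 3 (0.526). The causes were not tested. No paired analysis was possible because nothing in the labels links pups across groups. Counting error of Bdnf (group medians 5.53% to 7.50%) was below its spread between pups (20.5% to 37.5%).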
